A study of Arabidopsis thaliana with 12 samples.

Results

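The glutathione S-transferases (GSTs) of the tau, phi and theta classes were followed in *Arabidopsis thaliana* siliques. The family list held 40 loci, 28 of class tau (*GSTU*), 10 of class phi (*GSTF*) and 2 of class theta (*GSTT*), and a probe set on the array could be assigned to 19 of them, 15 tau, 3 phi and 1 theta. The array annotation named the probe sets of 11 members, all of class tau (*GSTU15*, *GSTU16*, *GSTU18*, *GSTU20*, *GSTU21*, *GSTU22*, *GSTU23*, *GSTU25*, *GSTU26*, *GSTU27* and *GSTU28*). The probe sets of the other 8 (*GSTU4*, *GSTU5*, *GSTU10*, *GSTU13*, *GSTF3*, *GSTF6*, *GSTF8* and *GSTT3*) were named only through the study's table of changed genes, so each of these had to differ in at least 1 comparison of these same arrays in order to appear. Their comparisons, the difference of the hypoxia responses included, are therefore given as a description without printed p-values. Where 1 of them is said to be called, to be raised or to meet a limit, this describes its values and is no independent test. Nothing is read from how many of them changed. The remaining 21 loci were not analysed here. The phi genes *GSTF4* and *GSTF13* were not on the family list and are given below with the glutathione genes. *GSTF3*, *GSTF6* and *GSTT3* are on probe sets whose suffix marks probes shared by more than 1 transcript, so their signals may include a near-identical gene.

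GSTs are enzymes that join the thiol of glutathione to electrophilic compounds such as herbicides, lipid breakdown products and defence metabolites, and the conjugates are then moved into the vacuole. Tau and phi are the large plant classes, and many of their genes lie in tandem arrays and respond to oxidants, salicylic acid, jasmonate precursors and wounding. Theta enzymes act mainly as glutathione peroxidases that reduce organic hydroperoxides.

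The 12 Affymetrix ATH1 arrays formed 4 groups of 3, namely WT (ecotype Col-0) and LeB4::AtHb1 plants, each in control air with 21% oxygen or in hypoxia with 10.5% oxygen for 1 h, in darkness, on plants 45 days old. The LeB4::AtHb1 plants, called *AtHb1* below, express the endogenous non-symbiotic hemoglobin gene under a seed-specific promoter. They were represented by a single transgenic line, L1-1. RNA came from pooled whole siliques, that is the seeds together with the fruit wall, so fewer cells of a type and less RNA per cell cannot be told apart.

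The values are log2 signals after RMA normalization, and differences between groups are given on that log2 scale with the standard error of the limma fit. Called probe sets are those with an adjusted p under 0.05 and a difference of over 2-fold. A member is said to have risen or fallen when its adjusted p alone was under 0.05. The *AtHb1* probe set followed the labels, with a WT signal of 6.0 ± 0.13 at control and 9.09 ± 0.04 under hypoxia, and an *AtHb1* signal of 11.49 ± 0.88 at control and 10.72 ± 0.38 under hypoxia (SD, n = 3 each). *AtHb1* control replicate 1 was the lowest of its group for this probe set, at 10.48. Within groups the arrays correlated at 0.9932 to 0.9983 over all probe sets. The signal of the array's control transcripts fell off from their 3′ to their 5′ end more steeply in *AtHb1*: the log2 difference on the WT arrays was 1.25 to 1.36 at control and 1.38 to 1.46 under hypoxia, and on the *AtHb1* arrays 1.75 to 1.9 and 1.75 to 1.97. The genotypes did not overlap in this measure, so RNA or labelling quality and genotype cannot be told apart.

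Markers of the tissues within a silique also differed among the groups, and their part in the GST values was not tested. The linear signals of the markers of each tissue were summed per array, and the log2 of that sum is given. For the seed coat markers (2 of 6 with a probe set, *DFR* and *BAN*) it was 12.78 to 13.11 over the WT arrays and 11.70 to 12.12 over the *AtHb1* arrays. The silique wall markers (2 of 9, *RCA* and *LHCB4.1*) lay at 13.90 to 14.06 in WT and 13.68 to 13.79 in *AtHb1*. The log2 change in *AtHb1* against WT was -0.35 at control and -0.55 under hypoxia for *RCA*. For *LHCB4.1* it was only -0.05 and -0.08. The late maturation markers (2 of 11, *EM6* and *EM1*) lay at 6.05 to 7.01 at control and 8.42 to 8.85 under hypoxia on the WT arrays. In *AtHb1* they ranged over 6.90 to 9.74 at control and 6.24 to 8.12 under hypoxia, with control replicate 1 the lowest of its group. The hypoxia change in WT was 2.36 for *EM1* and 0.37 for *EM6*. The pollen markers (2 of 5) were highest in WT control, at 9.75 to 9.92, against 8.24 to 9.13 over the other 3 groups. *EM6*, *EM1* and 1 of the 2 pollen markers were, like the 8 GST members, named only through the table of changed genes, so they too had to differ on these arrays in order to appear.

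Among the 11 members that the annotation named, *GSTU26* (AT1G17190) was the one whose response to hypoxia differed between the genotypes. Its signals were 8.94, 9.0 and 9.29 in WT control, 8.56, 8.47 and 8.48 in WT hypoxia, 9.19, 9.17 and 9.10 in *AtHb1* control, and 9.26, 9.66 and 9.44 in *AtHb1* hypoxia. All WT hypoxia arrays lay below all other arrays, and all *AtHb1* hypoxia arrays but the first lay above all others. *GSTU26* fell under hypoxia in WT by 0.57 ± 0.10 (limma, adjusted p = 0.00145). In *AtHb1* the change was 0.30 ± 0.10 (adjusted p = 0.0556). The difference between these responses was 0.87 ± 0.15 (limma interaction, adjusted p = 0.00205). Under hypoxia *GSTU26* was 0.95 ± 0.10 higher in *AtHb1* than in WT, or 1.93-fold (adjusted p = 1.47e-05), and at control the genotype difference was 0.08 ± 0.10 (adjusted p = 0.628). The difference under hypoxia lay just under the 2-fold limit and reached 1.05 without *AtHb1* hypoxia replicate 1.

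*GSTU16* (AT1G59700), *GSTU20* and *GSTU23* were higher in *AtHb1* in both treatments. *GSTU20* (AT1G78370), whose product interacts with the jasmonate-conjugating enzyme JAR1, was among the 5 members with the highest signal. Its arrays read 12.09, 12.13 and 12.12 in WT control, 11.98, 11.93 and 12.08 in WT hypoxia, 12.55, 12.54 and 12.61 in *AtHb1* control, and 12.40, 12.06 and 12.29 in *AtHb1* hypoxia. The control groups did not overlap, whereas *AtHb1* hypoxia replicate 2 fell within the WT hypoxia range. The genotype difference was 0.45 ± 0.08 at control (limma, adjusted p = 8.07e-04) and 0.25 ± 0.08 under hypoxia (adjusted p = 0.0255). In *AtHb1* the transcript fell by 0.31 ± 0.08 under hypoxia (adjusted p = 0.0164), and in WT the change was -0.12 ± 0.08 (adjusted p = 0.396).

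*GSTU16* read 9.92, 9.86 and 10.05 in WT control, 9.69, 9.75 and 9.76 in WT hypoxia, 10.46, 10.68 and 10.44 in *AtHb1* control, and 10.19, 10.04 and 10.41 in *AtHb1* hypoxia. Each *AtHb1* group lay wholly above the WT group of the same treatment. The transcript was higher in *AtHb1* by 0.58 ± 0.10 at control (limma, adjusted p = 3.67e-04) and by 0.48 ± 0.10 under hypoxia (adjusted p = 0.00125), and it fell by 0.31 ± 0.10 under hypoxia in *AtHb1* (adjusted p = 0.0343). *GSTU23* (AT1G78320), a weaker probe set whose WT group means (5.59 and 5.65) lay below a log2 signal of 6, taken here as dim, was higher in *AtHb1* by 0.50 ± 0.12 at control (adjusted p = 0.00435) and 0.47 ± 0.12 under hypoxia (adjusted p = 0.00521). None of these 3 passed limma's interaction test, the differences of the hypoxia responses being -0.10 ± 0.14, -0.20 ± 0.12 and -0.03 ± 0.16 for *GSTU16*, *GSTU20* and *GSTU23* (adjusted p = 0.716, 0.315 and 0.947).

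*GSTU27* (AT3G43800) was the annotation-named member that was lower in *AtHb1*. Its arrays read 7.38, 7.37 and 7.76 in WT control, 7.17, 7.05 and 6.98 in WT hypoxia, 7.0, 6.95 and 6.98 in *AtHb1* control, and 6.53, 6.59 and 6.86 in *AtHb1* hypoxia. The WT control arrays were the highest and the *AtHb1* hypoxia arrays the lowest, without overlap with the groups between them. Against WT, its log2 change in *AtHb1* was -0.52 ± 0.11 at control (limma, adjusted p = 0.00199) and -0.41 ± 0.11 under hypoxia (adjusted p = 0.00841). It fell by 0.43 ± 0.11 under hypoxia in WT (adjusted p = 0.0137), and the change in *AtHb1* was -0.32 ± 0.11 (adjusted p = 0.0509).

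*GSTU28* (AT1G53680) fell by 0.24 ± 0.07 under hypoxia in WT (limma, adjusted p = 0.023), from group means of 6.54 to 6.29. The other 5 annotation-named members, *GSTU15* (AT1G59670), *GSTU18* (AT1G10360), *GSTU21* (AT1G78360), *GSTU22* (AT1G78340) and *GSTU25* (AT1G17180), passed the test in no comparison. Their changes ran from -0.31 for *GSTU21* to 0.27 for *GSTU15*, both for hypoxia against control in *AtHb1*. *GSTU25* encodes an enzyme known to conjugate the explosive TNT. It and *GSTU21* were below this dim limit of 6 in each group mean, which limits what could be seen in them. The group means of *GSTU22* lay next to that limit, at 5.94 to 6.06.

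**Figure D1:**
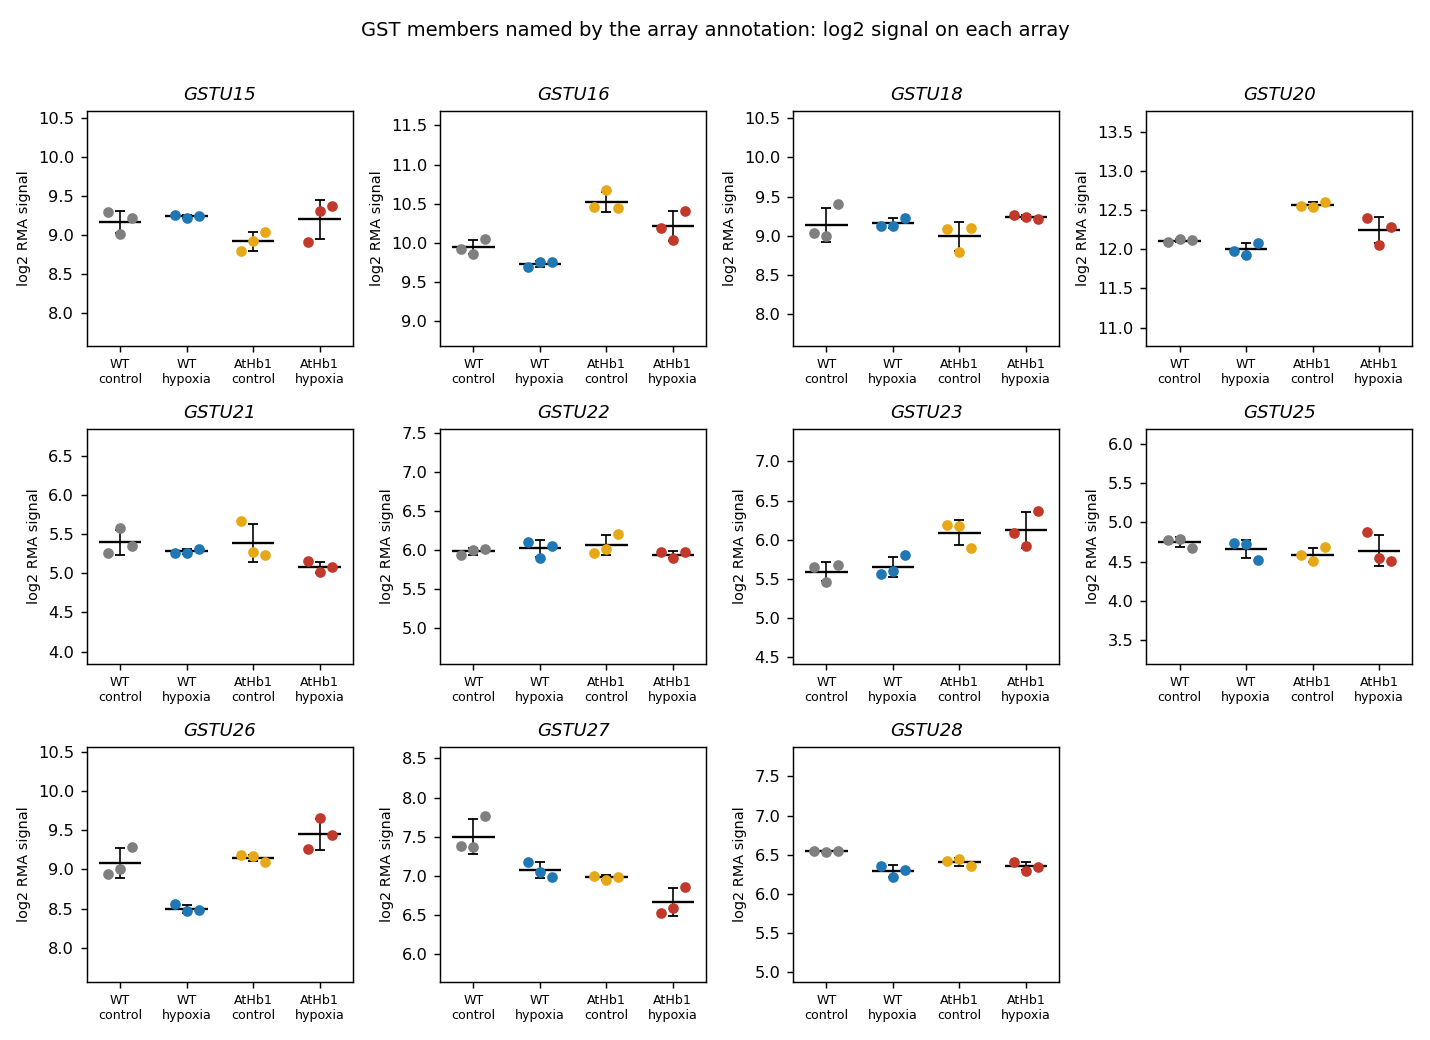
Log2 RMA signal (y axis, same span in each panel) of the 11 annotation-named GST members on each of the 3 arrays of the 4 groups (x axis), with the group mean (line) and SD (error bar). *GSTU26* is lowest on all WT hypoxia arrays, *GSTU16* and *GSTU20* are higher and *GSTU27* is lower in *AtHb1* control than in WT control, and *GSTU22* and *GSTU25* stay near 1 level.

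Counted over these 11, with no 2-fold limit, 3 members were higher and 1 was lower in *AtHb1* at control, where 17.5% of all 22746 probe sets passed as higher and 15.7% as lower. Under hypoxia 4 were higher and 1 was lower in *AtHb1*, against 22.3% and 18.3% of all probe sets. In WT, hypoxia raised 0 and lowered 3 of the 11, where 8.70% of all probe sets rose and 7.13% fell. In *AtHb1*, hypoxia raised 0 and lowered 2, where 12.6% rose and 9.51% fell. An unadjusted p under 0.05 was met by 4 of the 11 in WT and 7 in *AtHb1*. The share of all probe sets at that weaker limit was not counted, so nothing is read from these 2 counts. The interaction passed for 1 member, *GSTU26*, with 6.98% of all probe sets passing in that direction and 5.30% in the other. The groups did not overlap for 5 of the 11 between the genotypes at control and for 5 under hypoxia, against 46.4% and 50.9% of all probe sets, and for 5 in WT and 6 in *AtHb1* between the treatments, against 36.2% and 36.0%. None of the 11 was called at over 2-fold by limma in any comparison. With so few members these counts are read as results on the named genes and not on the tau class. The median change of the 11 was -0.01 and 0.05 for *AtHb1* against WT in control and hypoxia, beside -0.01 and -0.00 over all probe sets. For hypoxia it was -0.12 in WT and -0.06 in *AtHb1*, beside -0.03 and 0.00. When the 3′ to 5′ signal difference entered the model as a covariate, the genotype results of these members no longer passed. This left 0 of 4 at control and 0 of 5 under hypoxia. The genotypes share no value of the covariate, so this fit cannot tell covariate and genotype apart. It does not show that the genotype differences are absent. The *GSTU26* interaction, 2 of the 3 hypoxia falls in WT and both in *AtHb1* still passed. With only the arrays of the groups compared, neither fall in *AtHb1* passed (limma, adjusted p = 0.0913 for *GSTU16* and 0.0581 for *GSTU20*). When 1 array was left out, 1 to 3 of the 11 passed for hypoxia in WT and 0 to 4 for hypoxia in *AtHb1*. Between the genotypes 4 to 5 then passed, both at control and under hypoxia. With only the arrays of the groups compared, 3 instead of 4 were higher in *AtHb1* under hypoxia. Centring each array on its median likewise left 3.

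The 8 members from the table of changed genes differed from each other in which factor moved them. *GSTU5* (AT2G29450) and *GSTF8* were raised by hypoxia in both genotypes. *GSTU5* read 8.85, 9.06 and 9.35 in WT control, 11.05, 10.86 and 10.83 in WT hypoxia, 9.22, 9.50 and 9.27 in *AtHb1* control, and 10.67, 10.45 and 10.34 in *AtHb1* hypoxia. Every hypoxia array lay above every control array. The change was 1.83 ± 0.12 in WT and 1.15 ± 0.12 in *AtHb1*, both past the 2-fold limit. Under hypoxia *GSTU5* was lower in *AtHb1* than in WT, with -0.43 ± 0.12, and at control the genotype difference was 0.24 ± 0.12.

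*GSTF8* (AT2G47730), a phi member whose promoter is widely used to report oxidative and salicylate signals, was likewise high in hypoxia. It read 10.16, 10.09 and 10.48 in WT control, 11.68, 11.64 and 11.67 in WT hypoxia, 10.58, 10.36 and 10.32 in *AtHb1* control, and 11.34, 11.58 and 11.51 in *AtHb1* hypoxia. The hypoxia arrays of both genotypes lay above all control arrays. The change was 1.42 ± 0.10 in WT and 1.06 ± 0.10 in *AtHb1*, and the genotype difference was 0.18 ± 0.10 at control and -0.19 ± 0.10 under hypoxia. The *AtHb1* change became 0.98 when each array was centred on its median, which ends that call.

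*GSTU4*, *GSTU10* and *GSTF3* were raised by hypoxia in WT and stood at least as high in *AtHb1* control as in WT hypoxia. *GSTU4* (AT2G29460) read 7.39, 7.88 and 6.68 in WT control, 8.57, 8.51 and 8.81 in WT hypoxia, 8.72, 8.83 and 8.49 in *AtHb1* control, and 8.68, 9.27 and 8.93 in *AtHb1* hypoxia. WT control lay below the 3 other groups, which overlapped, and its own SD of 0.60 was the widest of the member's groups because replicate 3 was low. The difference was 1.37 ± 0.22 between genotypes at control and 1.31 ± 0.22 for hypoxia in WT. Without WT control replicate 3 the latter was 0.99 and no longer a call.

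*GSTU10* (AT1G74590) read 5.42, 5.27 and 5.59 in WT control, 6.16, 6.58 and 6.28 in WT hypoxia, 6.77, 6.97 and 6.81 in *AtHb1* control, and 6.47, 7.23 and 6.68 in *AtHb1* hypoxia. The *AtHb1* control arrays were above all WT arrays of either treatment. All WT control arrays lay under the dim limit of 6, so differences from that group are taken against a weak signal. The genotype difference was 1.42 ± 0.16 in control air and 0.46 ± 0.16 in hypoxia. The hypoxia change was 0.91 ± 0.16 in WT, short of the 2-fold limit, and -0.06 ± 0.16 in *AtHb1*.

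*GSTF3* (AT2G02930), a phi member on a shared probe set, read 7.94, 7.93 and 8.15 in WT control, 8.99, 8.72 and 8.83 in WT hypoxia, 9.37, 9.41 and 9.21 in *AtHb1* control, and 8.78, 9.39 and 8.87 in *AtHb1* hypoxia. As with *GSTU10*, the *AtHb1* control arrays exceeded all WT arrays. The genotype difference was 1.32 ± 0.13 at control and 0.17 ± 0.13 under hypoxia, and the hypoxia change was 0.84 ± 0.13 in WT and -0.32 ± 0.13 in *AtHb1*.

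*GSTU13* and *GSTF6* stood highest in WT hypoxia, with *AtHb1* control between the WT groups. *GSTU13* (AT1G27130), which acts in the pathogen-triggered metabolism of indole glucosinolates, read 8.33, 8.48 and 8.78 in WT control, 9.66, 9.61 and 9.64 in WT hypoxia, 9.15, 9.21 and 8.98 in *AtHb1* control, and 9.27, 9.63 and 9.39 in *AtHb1* hypoxia. In WT the treatments were far apart, and in *AtHb1* they were adjacent without overlap. The hypoxia change was 1.11 ± 0.11 in WT and 0.32 ± 0.11 in *AtHb1*, and the genotype difference was 0.58 ± 0.11 at control and -0.21 ± 0.11 under hypoxia.

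*GSTF6* (AT1G02930), which conjugates an intermediate of the phytoalexin camalexin, read 10.77, 10.93 and 10.79 in WT control, 11.73, 11.83 and 11.96 in WT hypoxia, 11.57, 11.59 and 11.23 in *AtHb1* control, and 11.06, 12.07 and 11.53 in *AtHb1* hypoxia. The *AtHb1* hypoxia arrays spread over more than the whole range of both *AtHb1* control and WT hypoxia. The WT hypoxia change of 1.01 ± 0.18 sat at the 2-fold limit and fell under it without WT control replicate 1 (0.98), WT control replicate 3 (0.99) or WT hypoxia replicate 3 (0.95), and with each array centred on its median (0.95). The change in *AtHb1* was 0.09 ± 0.18, and the genotype difference was 0.64 ± 0.18 at control and -0.28 ± 0.18 under hypoxia.

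*GSTT3* (AT5G41220), the theta member and also on a shared probe set, differed by genotype in both treatments. It read 7.68, 7.75 and 7.53 in WT control, 7.84, 7.94 and 8.10 in WT hypoxia, 8.50, 8.77 and 8.89 in *AtHb1* control, and 8.65, 8.78 and 8.96 in *AtHb1* hypoxia. Every *AtHb1* array lay above every WT array. The difference was 1.06 ± 0.11 at control and 0.84 ± 0.11 under hypoxia, and the control value was 0.98 without *AtHb1* control replicate 3. The hypoxia change of *GSTT3* was 0.31 ± 0.11 in WT and 0.08 ± 0.11 in *AtHb1*.

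**Figure D2:**
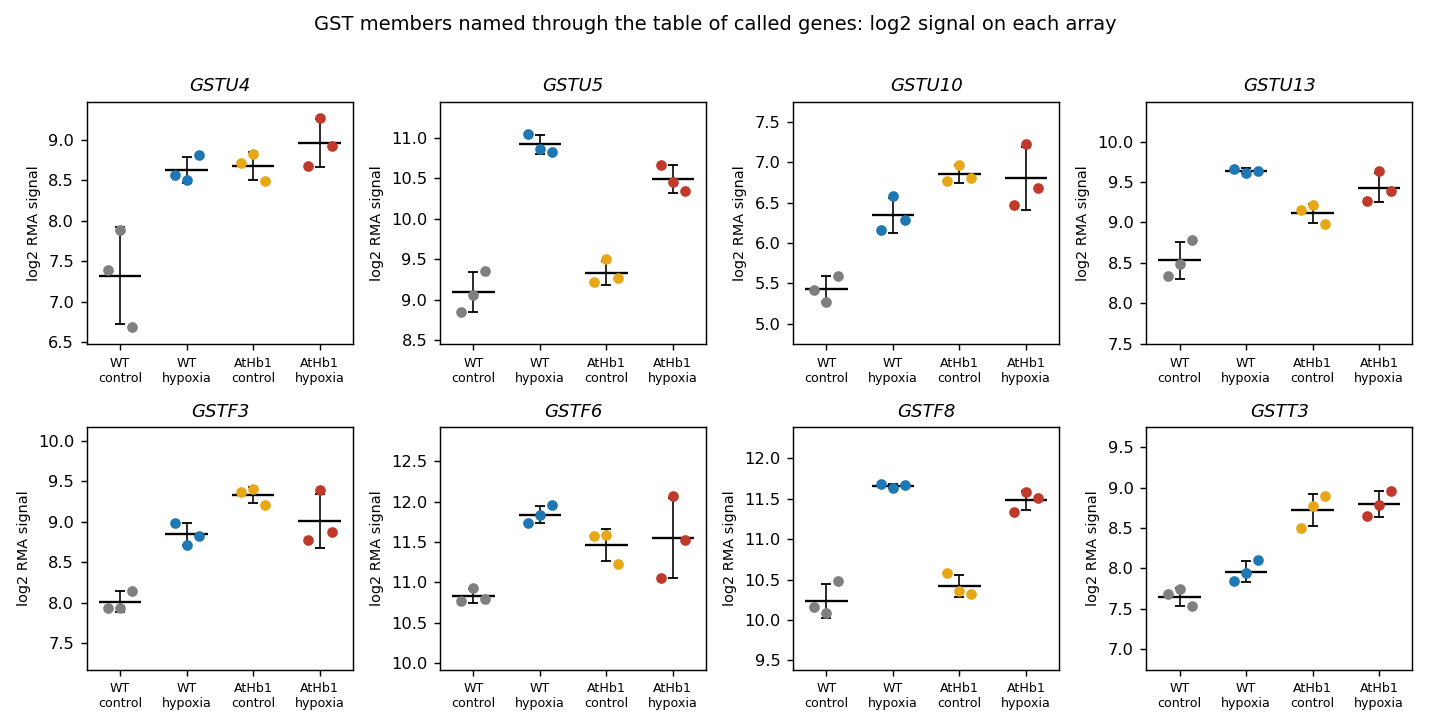
Log2 RMA signal (y axis, same span in each panel) of the 8 GST members named through the table of changed genes on each of the 3 arrays of the 4 groups (x axis), with the group mean (line) and SD (error bar). *GSTU5* and *GSTF8* are high on all hypoxia arrays, and *GSTT3* is high on all *AtHb1* arrays. *GSTU4*, *GSTU10*, *GSTU13*, *GSTF3*, *GSTF6* and *GSTT3* are lowest on the WT control arrays.

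The arrays within a group did not read these 8 members alike. In *AtHb1* hypoxia replicate 2 was the highest for 6 of the 8, and replicate 1 was the lowest for 7. In *AtHb1* control replicate 2 was likewise the highest for 6, and replicate 3 was the lowest for 5. Over all 19 members *AtHb1* hypoxia replicate 2 was the highest of its group for 7 and replicate 1 the lowest for 10. WT control replicate 3 was the highest of its group for 11 of the 19, and WT hypoxia replicate 1 for 10.

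Over all 19 members, 4 were called higher and none lower in *AtHb1* at control (*GSTU4*, *GSTU10*, *GSTF3* and *GSTT3*). Over the array 1.20% of probe sets were called higher and 0.972% lower in that comparison, but since the 4 came from the table of changed genes, no enrichment can be read from the count. Under hypoxia none of the 19 was called between the genotypes by limma, where 0.791% of the array was called higher and 0.950% lower. At the adjusted p alone 6 were higher and 2 lower, against 22.3% and 18.3% of the array. Of these, 2 higher and 1 lower came from the table of changed genes. At an unadjusted p under 0.05 there were 8, and the array share at that limit was not counted.

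**Figure D3:**
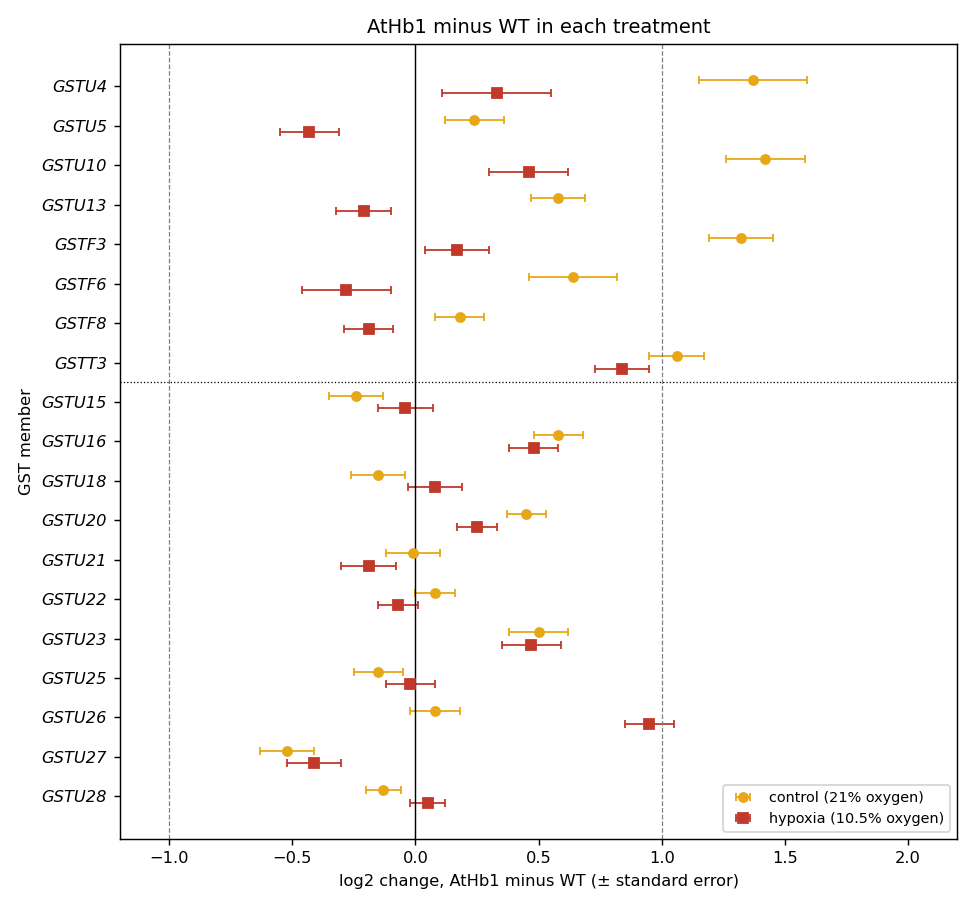
Log2 change of *AtHb1* against WT (x axis, error bars are the limma standard error, dashed lines mark 2-fold) for each GST member (y axis), at control (circles) and under hypoxia (squares). Members above the dotted line were named through the table of changed genes. *GSTU4*, *GSTU10* and *GSTF3* lie at 1.37, 1.42 and 1.32 at control and at 0.33, 0.46 and 0.17 under hypoxia, *GSTT3* lies near 1 in both, and *GSTU26* departs from 0 under hypoxia only.

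The genotype calls at control were lost when the 3′ to 5′ signal difference entered the model. With it as a covariate, none of the 4 was called, and the change was -0.04 for *GSTU4*, 0.74 for *GSTU10*, 0.73 for *GSTF3* and 0.58 for *GSTT3*. The genotypes share no value of the covariate, so covariate and genotype cannot be told apart in this fit.

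Under hypoxia in WT, 5 of the 19 were called higher and none lower (*GSTU4*, *GSTU5*, *GSTU13*, *GSTF6* and *GSTF8*), where 1.53% of the array was called higher and 0.290% lower. In *AtHb1* the calls were *GSTU5* and *GSTF8*, both higher, where 0.673% of the array was called higher and 0.444% lower. All calls in both genotypes again came from the table of changed genes, so nothing is read from their number. With the 3′ to 5′ covariate *GSTU5* and *GSTF8* stayed called in WT, while *GSTU4* (0.99), *GSTU13* (0.99) and *GSTF6* (0.69) fell short of 2-fold.

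**Figure D4:**
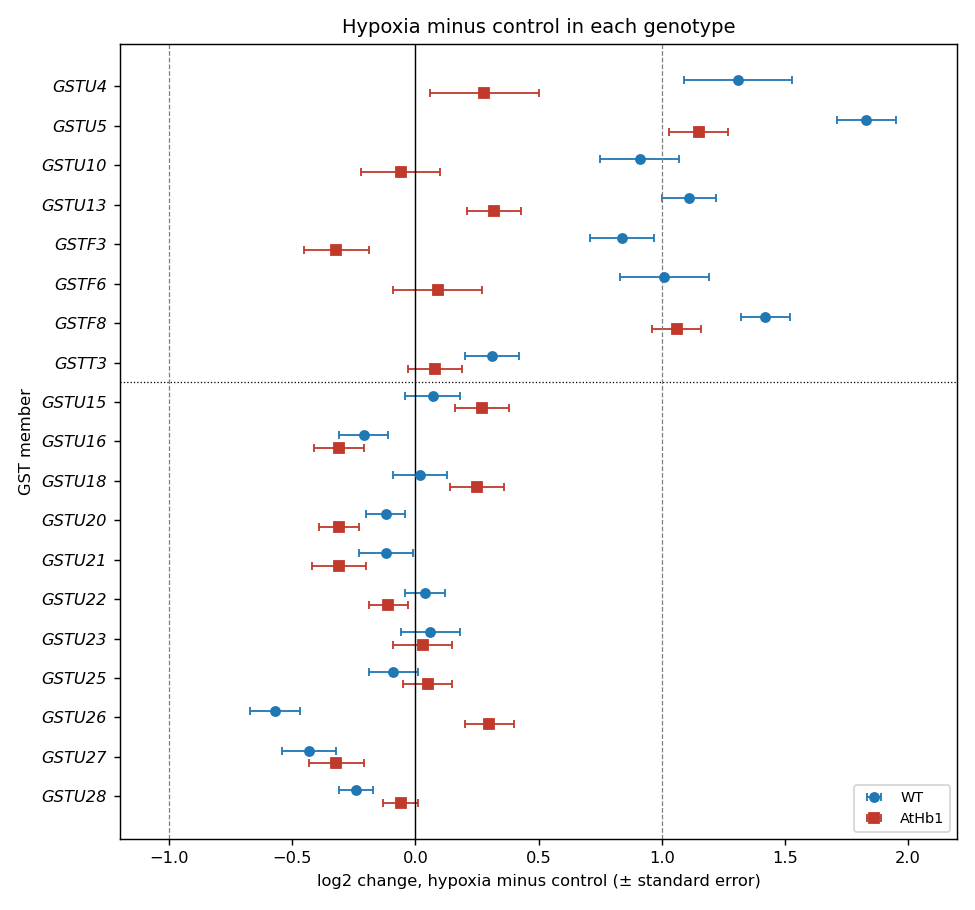
Log2 change of hypoxia against control (x axis, error bars are the limma standard error, dashed lines mark 2-fold) for each GST member (y axis), in WT (circles) and *AtHb1* (squares). Members above the dotted line were named through the table of changed genes. *GSTU5* and *GSTF8* pass 2-fold in both genotypes, *GSTU4*, *GSTU13* and *GSTF6* in WT, and *GSTU26* has opposite signs.

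How far the response to hypoxia in *AtHb1* departed from that in WT was fitted as an interaction. It is made from the same comparisons that put the 8 members in the table, so for these it is a description. *GSTF3* (-1.16 ± 0.19) and *GSTU4* (-1.04 ± 0.32) met both limits of a call, where 1.51% of the array was called lower and 0.497% higher. For *GSTU4* this was lost on leaving out any 1 of 10 of the 12 arrays, with values of -1.32 to -0.72.

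Below the 2-fold limit, the difference was -0.97 ± 0.23 for *GSTU10* and -0.92 ± 0.26 for *GSTF6*. Without *AtHb1* hypoxia replicate 2 they were -1.19 and -1.18, both past the limit. It was -0.79 ± 0.16 for *GSTU13* and -0.68 ± 0.18 for *GSTU5*. The adjusted p limit was no longer met for *GSTU5* without WT control replicate 1, WT hypoxia replicate 1, *AtHb1* control replicate 2 or *AtHb1* hypoxia replicate 3, and for *GSTF6* without any 1 of 7 of the 12 arrays. For *GSTF8* the difference was -0.36 ± 0.15 and for *GSTT3* -0.23 ± 0.16. The interaction and the 4 comparisons share arrays, so their values are not independent of one another: for *GSTU4*, *GSTU10* and *GSTF3*, the WT control arrays enter both the large genotype difference at control and the large hypoxia change in WT.

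Members that are neighbours in the genome are given side by side. *GSTU4* and *GSTU5* have 1 gene between them in the reference order. Their hypoxia changes in *AtHb1* were 0.28 ± 0.22 and 1.15 ± 0.12, and their genotype differences at control were 1.37 ± 0.22 and 0.24 ± 0.12. *GSTU20*, *GSTU21*, *GSTU22* and *GSTU23* follow one another directly. The outer members were higher in *AtHb1* control (0.45 ± 0.08 and 0.50 ± 0.12), and the differences of the inner members were -0.01 ± 0.11 and 0.08 ± 0.08. *GSTU25* and *GSTU26* are adjacent, and their genotype differences under hypoxia were -0.02 ± 0.10 and 0.95 ± 0.10. *GSTU21* and *GSTU25* were dim in each group and *GSTU23* in WT, and the group means of *GSTU22* lay at 5.94 to 6.06. This limits these comparisons, and no test was made of 1 gene against another.

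**Figure D5:**
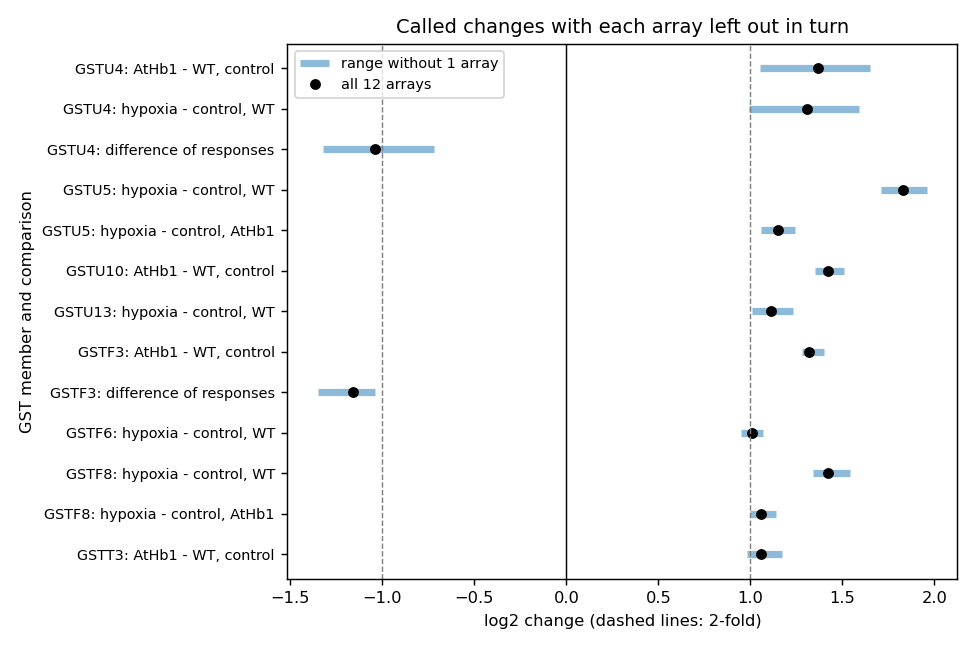
Log2 change of each called GST member and comparison (y axis) with all 12 arrays (black points) and its range when each array is left out in turn (blue bars); dashed lines mark 2-fold. All members shown were named through the table of changed genes, so the bars describe their values and are no independent test. Both *GSTU5* bars stay outside 2-fold (1.71 to 1.96 in WT and 1.06 to 1.24 in *AtHb1*). The *GSTF6* bar (0.95 to 1.07) and the *GSTU4* interaction bar (-1.32 to -0.72) cross it.

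Other genes of glutathione metabolism, 39 in all, were counted beside the family. They covered synthesis, recycling and breakdown of glutathione, GSTs outside the family list, glutathione peroxidases, vacuolar conjugate transporters and regulators of GST genes. The GSTs outside the list included phi and theta genes, and the annotation named probe sets of the phi genes *GSTF4* and *GSTF13*. A probe set was assigned to 5 of the 39, so most of the pathway was not analysed here. None of the 5 was called in any comparison by limma. At an unadjusted p under 0.05 there were 3, 1, 2, 1 and 0 in the 5 comparisons, and the array share at that limit was not counted. Those that passed the adjusted p were all lower, 3 and 1 of the 5 between the genotypes at control and under hypoxia, where 15.7% and 18.3% of all probe sets passed as lower, and 1 for hypoxia in WT, where 7.13% did. *GSTL3*, of the lambda class, whose enzymes are thiol transferases, was lower in *AtHb1* at control (-0.57, limma adjusted p = 7.30e-05) and under hypoxia (-0.36, adjusted p = 0.0023). *GR1*, the glutathione reductase that regenerates reduced glutathione in the cytosol, was lower in *AtHb1* at control (-0.26, adjusted p = 0.00973) and fell by 0.26 under hypoxia in WT (adjusted p = 0.0197). *GSTF4*, of class phi, was lower in *AtHb1* at control (-0.35, limma adjusted p = 0.0145), with group means of 5.62 in WT and 5.26 in *AtHb1*. Like *GSTF13*, it was below the dim limit of 6 in each group mean. *GR2* and *GSTF13* passed in none.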

How the data were processed

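RNA from pooled siliques was hybridised to 12 ATH1 arrays, 3 in each group, and groups were taken from the sample labels. The deposited values are log2 signals per probe set, made by the authors with RMA from scans processed with MAS5, whose versions are not given in the sources used here, and they were used without further normalization. Array intensities carry no read depth, so 3 arrays a group set the precision. The labels call the replicates biological, each made from pooled siliques. The 64 control probe sets were set apart and 22746 tested.

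Probe sets were assigned to loci by the array annotation (RefSeq locus tags of TAIR10.1, used for names and gene order) and otherwise by the identifiers in the study's table of changed genes, of which no value was used. A locus with several probe sets took that with the highest mean. limma 3.58.1 in R 4.3.3 fitted 1 mean per group over all arrays, with 5 contrasts and Benjamini-Hochberg adjustment over all tested probe sets. Errors are moderated standard errors. Python 3.11.15 and pandas 2.3.3 handled the tables. The fit was tested on simulated data holding 200 changed probe sets.

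The members and lists were chosen with earlier results of these data known. Values on each array are given for called members and for the 5 of highest mean; those of *GSTU26* and *GSTU27*, and the changes of *GSTU23* and *GSTU28*, were added after their values were seen. Of the glutathione genes, the rule named only called ones, and those named were likewise added later. Markers of pollen, seed coat, seed maturation and silique wall were summed per array. Other settings tried were the unadjusted p, calls without a fold limit, the compared groups alone, a trended robust fit, array weights, no dim probe sets, median centring, a replicate block, no shared probe sets, annotation-named members alone, the 3′ to 5′ signal difference as covariate, and each array left out.

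Same-numbered replicates of different groups did not deviate together, so the numbers were not used as pairs.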

Additional observations from a re-analysis of the deposited data

Results flagged for a closer look

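For *GSTU26*, which the annotation named, the hypoxia response differed between the genotypes by limma's interaction test, with a log2 response of *AtHb1* minus that of WT of 0.87. The same limit was met by 6 members that entered through the table of changed genes, for which it is no independent test because they were selected on these arrays. Their differences were -1.16 for *GSTF3*, -1.04 for *GSTU4*, -0.97 for *GSTU10*, -0.92 for *GSTF6*, -0.79 for *GSTU13* and -0.68 for *GSTU5*. Of all probe sets, 6.98% met the same limit as higher and 5.30% as lower, so nothing is read from the number of members.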

How the results depend on the processing

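Called members numbered 4, 0, 5 and 2 for the genotypes at control, the genotypes under hypoxia, hypoxia in WT and hypoxia in *AtHb1*, and 2 for the interaction. All of these came from the table of changed genes, so nothing is read from their number. Of all probe sets, 1.20%, 0.791%, 1.53%, 0.673% and 0.497% were called higher. As lower, 0.972%, 0.950%, 0.290%, 0.444% and 1.51% were called. With no fold limit the passing members numbered 10, 8, 10, 4 and 7, of which 4, 5, 3, 2 and 1 were annotation-named. Of all probe sets, 17.5%, 22.3%, 8.70%, 12.6% and 6.98% then passed as higher. As lower, 15.7%, 18.3%, 7.13%, 9.51% and 5.30% passed. With the fold limit and annotation-named members alone, the called members numbered 0 in each. With the 3′ to 5′ difference as covariate they were 0 for the genotypes at control, 2 for hypoxia in WT and 1 for the interaction. In that fit *GSTU4* at control (-0.04), *GSTU10* between genotypes under hypoxia (-0.18) and *GSTF6* at control (-0.79) changed sign, and none of the 3 passed. Without the shared probe sets 2 were called at control and 1 for the interaction. Median centring left 4 for hypoxia in WT and 1 in *AtHb1*, and the trended robust fit and array weights each left 1 interaction. Leaving out 1 array gave 3 to 4, 0 to 1, 3 to 6, 2 and 1 to 4. The 3 for the genotypes at control came without *AtHb1* control replicate 3, the 3 for hypoxia in WT without WT control replicate 3, and the 4 interactions without *AtHb1* hypoxia replicate 2. The count for the genotypes under hypoxia reached 1 without *AtHb1* hypoxia replicate 1. Of the glutathione genes, 0 were called, also without any 1 array, and 3 passed with no fold limit. With the replicate block the counts stayed at 4, 0, 5, 2 and 2. The 18 same-numbered pairs of different groups correlated at -0.134 to 0.124 in their deviations and 2 exceeded 0.1. For the 36 differently numbered pairs the range was -0.216 to 0.219 and 5 exceeded 0.1. With 3 arrays a group this cannot exclude that arrays of 1 number shared a run. Beyond what their construction fixes (fewer members, no limit), the cause of these shifts was not tested. Signals below 6 limit *GSTU21*, *GSTU25*, *GSTF4* and *GSTF13* in each group, *GSTU10* in WT control and *GSTU23* in WT. *GSTU22* was just below 6 in WT control (5.98) and *AtHb1* hypoxia (5.94). Shared probes limit *GSTF3*, *GSTF6* and *GSTT3*.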
